A study of Mus musculus with 13 samples.

Results

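The cells described here were myogenic barcodes, that is, barcodes of skeletal muscle lineage recovered among the stromal cells of the mouse mammary gland. A barcode (one droplet, read as one cell) was taken as myogenic when it held 500 to 7500 detected genes and at most 10% mitochondrial unique molecular identifiers (UMIs, each a counted RNA molecule), carried UMIs of at least 2 of the 5 genes Pax7, Myf5, Myod1, Myog and Des, had at most 20 UMIs of the fibroblast gene Dcn per 10000, and had no UMI of Pdgfra, Epcam, Pecam1 or Rgs5. The rule found 532 barcodes among 111246 barcodes kept by the gene and mitochondrial limits in 13 libraries, or 0.478%. The members were chosen by the UMIs of those 10 genes, so the levels of these genes and their detection in the members are given as description, with no test.

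The libraries came from female mice. For the 9 wild-type C57BL/6 libraries, Lin- CD24- stromal cells (depleted of CD31, CD45 and TER-119) of 2 females were sorted per library: puberty (4 weeks), adult virgin (9 weeks), pregnancy day 14.5, lactation day 10, involution day 4, and 2 placebo and 2 MPA+E libraries (9 weeks; pellets of medroxyprogesterone acetate, a synthetic progestin, with estradiol). The 4 raGFP-Wnt1 libraries (Pdgfra-GFP KI/+ MMTV-Wnt1 T/+, C57BL/6 FVB mixed background) held GFP+ cells of hyperplastic glands and of tumors from the same 2 mice, aged 45 and 17 weeks; the GFP is driven by Pdgfra, a fibroblast gene that the rule asks to be absent, and Wnt1 by the MMTV promoter, which is active in mammary epithelium. Each stage was a single library, so stages have no replicate check, and intervals given for a share or a level cover counting error only.

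Skeletal muscle keeps its own stem cells, the satellite cells, beneath the basal lamina of the muscle fibre. They are marked by the paired-box factor Pax7 and the myogenic factor Myf5, and are held quiescent in part by Notch signalling and by the calcitonin receptor. On activation they express Myod1, divide, and then switch on Myog, leave the cell cycle, fuse through the membrane proteins myomaker (Mymk) and myomixer (Mymx), and assemble sarcomeres. The inguinal and thoracic mammary fat pads lie against body wall and skin muscle, and a stromal digest can carry such cells. In what follows, members with at least 1 Myog UMI were called differentiating, members with no Myog UMI and at least 1 Pax7 or Myf5 UMI were called satellite, and the rest, which held Myod1 and Des only, were kept apart as other.

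The factors Myf5, Myod1 and Myog bind the E-box, CANNTG, with a preference for CAGCTG. The start regions of Myog, whose UMIs define the differentiating class, and of Klhl41 and Chrna1, described below, are shown because they carry these letters in different numbers. Each run is the 250 bases before the RefSeq start on the strand of the gene (GRCm38.p6), with every CANNTG in capitals. The motif is its own reverse complement in its fixed letters, so both strands are covered.
Myog, chr1:134289754-134290003, plus strand: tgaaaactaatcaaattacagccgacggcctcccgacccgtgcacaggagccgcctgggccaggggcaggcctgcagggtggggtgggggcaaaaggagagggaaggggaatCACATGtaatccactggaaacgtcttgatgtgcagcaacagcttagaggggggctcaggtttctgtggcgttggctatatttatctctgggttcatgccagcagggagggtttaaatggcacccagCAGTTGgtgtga
Klhl41, chr2:69669870-69670119, plus strand: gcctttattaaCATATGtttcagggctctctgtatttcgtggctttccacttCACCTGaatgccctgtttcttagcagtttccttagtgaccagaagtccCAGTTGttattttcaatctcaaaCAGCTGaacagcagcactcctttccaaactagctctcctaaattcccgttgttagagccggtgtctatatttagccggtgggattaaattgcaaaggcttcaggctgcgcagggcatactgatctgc
Chrna1, chr2:73580339-73580588, minus strand: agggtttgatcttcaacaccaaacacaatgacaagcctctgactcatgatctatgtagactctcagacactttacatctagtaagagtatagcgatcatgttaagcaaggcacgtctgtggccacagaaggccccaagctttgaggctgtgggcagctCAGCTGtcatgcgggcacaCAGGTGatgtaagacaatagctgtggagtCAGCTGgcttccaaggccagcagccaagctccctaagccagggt
CANNTG stood 2 times in the Myog run, 4 times in Klhl41 and 3 times in Chrna1, and CAGCTG 0, 1 and 2 times. Of 32851 RefSeq start regions of this length, 4271 (13.001%) held CAGCTG and 21753 (66.2%) held CANNTG, so the short form is common by letters alone. Of the 10 genes named below as higher in the differentiating class, 7 had an entry, with 8 start regions, of which 3 held CAGCTG. Of the 10 named as higher in the satellite class, 7 had an entry, and 1 of these 7 start regions held it. These are letter matches and say nothing of binding.

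Depth ranged from 56551189 to 112550204 UMIs a library, over 5230 to 14424 barcodes, and between 4840 and 13257 of these were kept. Any 2 libraries shared 3 to 46 kept barcode sequences, and no sequence belonged to a member in both. Whether a member's sequence was also a kept barcode of another library was not counted. The members were shallower than fibroblast barcodes of the same library (same limits, Dcn above 20 per 10000 and at least 1 Pdgfra UMI): the median was 4409 UMIs against 7326 in puberty and 3413 against 6224 in adult.

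Myogenic barcodes were most frequent in the puberty library and were not found in any raGFP-Wnt1 library. In puberty there were 290 of 8410 kept barcodes, or 3.45% (exact 95% interval 3.07 to 3.86%). In adult there were 87 of 12832, or 0.678% (0.543 to 0.836%). In pregnancy there were 29 of 13257, or 0.219% (0.147 to 0.314%). The share in puberty was 5.09 times that in adult (95% interval 4.01 to 6.45), and the share in adult was 3.10 times that in pregnancy (2.04 to 4.72). Lactation held 8 of 8947 (0.0894%, 0.0386 to 0.176%) and involution 15 of 10847 (0.138%, 0.0774 to 0.228%). The neighbours lower in this order, pregnancy over involution (1.58 times, 0.849 to 2.95) and involution over lactation (1.55 times, 0.656 to 3.65), did not differ beyond counting error. How much muscle was taken up with each gland was not measured, and with 1 library a stage this cannot be told apart from the stage.

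The hormone libraries differed more within an arm than between arms. Placebo replicate 1 held 23 of 5332 kept barcodes (0.431%, 0.274 to 0.647%) and placebo replicate 2 held 14 of 6493 (0.216%, 0.118 to 0.362%). MPA+E replicate 1 held 62 of 5828 (1.06%, 0.817 to 1.36%) and MPA+E replicate 2 held 4 of 9848 (0.0406%, 0.0111 to 0.104%). The 2 MPA+E values lay on either side of both placebo values, and MPA+E replicate 1 was 26.2 times MPA+E replicate 2 (9.53 to 72.0). The mean log2 share was lower in MPA+E by 0.55, that is, a log2 difference of -0.55 (exact two-sided permutation test over 2 against 2 libraries, p = 1, the smallest p this design allows being 0.333). It was 1.80, in the other direction, without MPA+E replicate 2, -2.91 without MPA+E replicate 1, -0.053 without placebo replicate 1 and -1.05 without placebo replicate 2. In the 4 raGFP-Wnt1 libraries there were 0 of 6562 and 0 of 8463 kept barcodes (hyperplasia) and 0 of 9587 and 0 of 4840 (tumor), which allows shares of up to 0.0457%, 0.0354%, 0.0313% and 0.0620% at 3 counts of the total, or 0.0562%, 0.0436%, 0.0385% and 0.0762% by the exact interval. These libraries were sorted on Pdgfra-driven GFP, and the sort and the tissue cannot be told apart here.

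**Figure D1:**
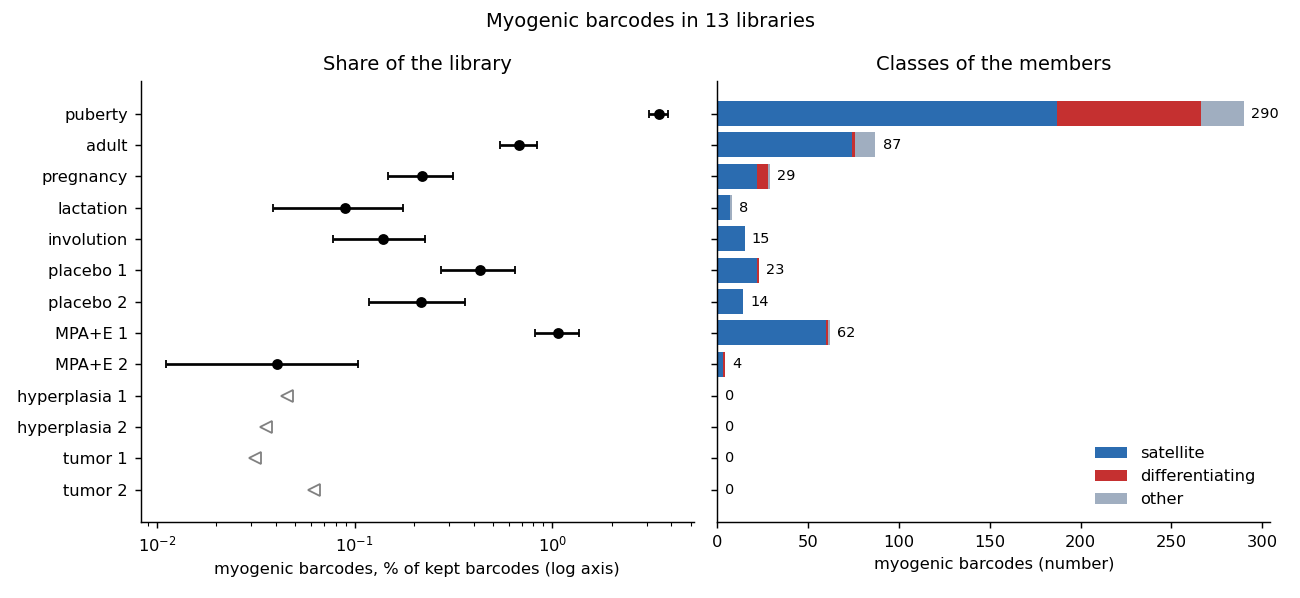
Left, myogenic barcodes as a percentage of kept barcodes on a log axis, with exact 95% intervals, and open triangles at 3 counts of the total where none was found. Right, the number of members by class; puberty holds 290 of the 532, and the 4 hyperplasia and tumor libraries hold 0.

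The label was borne out by muscle genes that the rule did not read. At least 2 of the 9 further myogenic markers Cdh15, Chodl, Calcr, Fgfr4, Megf10, Itga7, Musk, Msc and Chrna1 were detected in 442 of the 532 members (83.1%), and 19 members had none. By library the share with at least 2 was lowest in pregnancy, at 62.1% (18 of 29, with 4 members holding none). It was 71.3% in adult, 84.5% in puberty and 100% in placebo replicate 1. Among fibroblast barcodes, which were deeper, the share with 2 or more lay between 0.116% and 1.12% in the 13 libraries. Cdh15 (M-cadherin) was detected in 58.6% of puberty and 40.2% of adult members against 0.375% and 0.217% of fibroblast barcodes, and Chodl (chondrolectin) in 40.3% and 70.1% against 0.521% and 0.182%. The least detected were Musk, in 11.7% of puberty members, and Msc, in 10.3% of adult members against 2.11% of fibroblast barcodes. In lactation Itga7, Musk and Msc were in 0 of 8 members, and Msc in 6.44% of fibroblast barcodes. The rule's own genes were chosen to differ and support nothing here, but their background is given: a Myog UMI was present in 12 of 4796 puberty fibroblast barcodes and a Pax7 UMI in 17 (0.354%), against 27.2% and 47.2% of the members.

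The limits of the rule leave cells on both sides. Of the puberty members, 178 held exactly 2 of the 5 markers, 103 held 3 and 9 held 4, and Des was among them in 272 of 290. Another 224 puberty barcodes met every other limit but held only 1 marker, which was Des in 197. In adult, 128 barcodes held only 1, which was Des in 119. Outside the members, 101 puberty and 66 adult barcodes that passed the exclusion genes held at least 2 of the further markers, as did 3 barcodes in tumor 1 and 14 in tumor 2, which have no member. Whether these barcodes are myogenic was not tested. For Dcn, 2 puberty and 5 adult members lay between 10 and 20 per 10000, and 3 barcodes in each library were left out only for a value between 20 and 30.

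Endothelial, epithelial, Schwann and macrophage markers were at or near 0, whereas fibroblast and smooth muscle list genes were not. In the puberty satellite class the summed endothelial list (4 genes) and epithelial list (5 genes) had 0 UMIs in 187 barcodes, the Schwann list 4 UMIs and the macrophage list 3. In the puberty differentiating class these lists had 2, 0, 4 and 1 UMIs in 79 barcodes, with Krt8, Krt18, Krt14 and Krt5 all at 0. The zeros of Epcam, Pecam1, Pdgfra and Rgs5 and the low Dcn in these lists are set by the rule and say nothing of other cells. Of the keratinocyte list only Krt10 was detected, with 29 and 33 UMIs. The fibroblast list (Dcn, Lum, Pdgfra, Col1a2, Col1a1) summed to 496 CPM (UMIs of the gene per 1e6 UMIs summed over the barcodes) in the satellite class and 986 CPM in the differentiating class, where 1 barcode held 49.9% of it. The pericyte and smooth muscle list summed to 892 CPM in the satellite and 3798 CPM in the differentiating class, and Acta2 gave 631 of 731 and 1890 of 1899 of these UMIs. In pregnancy, 1 satellite barcode held 92.3% of the epithelial and 66.5% of the pericyte and smooth muscle list UMIs of its class. In MPA+E replicate 1, the 1 member of the other class held 661 of the library's 710 myofibre list UMIs (Acta1, Ckm, Myh1, Myh4, Tnnt3). No result below was tested for what these barcodes add to it.

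Differentiating cells made up 79 of 290 members in puberty (27.2%, 22.2 to 32.8%), 2 of 87 in adult (2.30%, 0.280 to 8.06%) and 6 of 29 in pregnancy (20.7%, 7.99 to 39.7%). There were 0 of 8 in lactation, 0 of 15 in involution (an upper limit of 21.8% by the exact interval), 1 of 23 and 0 of 14 in placebo, and 1 of 62 and 1 of 4 in MPA+E. Puberty held 87.8% of the 90 differentiating and 54.5% of all members of the series. The share in puberty was 11.9 times that in adult (2.97 to 47.2), whereas puberty over pregnancy was 1.32 times (0.630 to 2.75). The order of the last pair turned with Des not counted, at 40.3% in puberty and 54.5% (6 of 11) in pregnancy, and with at least 3 markers, at 40.2% and 50% (4 of 8). With a mitochondrial limit of 5% in place of 10% both shares fell, to 17.8% (30 of 169) in puberty and 9.09% (1 of 11) in pregnancy. When each member was thinned to 2000 UMIs, with 3 puberty and 5 adult members too shallow to use, 78 of 287 and 1 of 82 held a Myog UMI (27.2% and 1.22%). As a share of all kept barcodes, satellite cells were 3.86 times (2.95 to 5.04) and differentiating cells 60.3 times (14.8 to 245) more frequent in puberty than in adult.

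Among the 187 puberty satellite barcodes, 130 held Pax7, 117 held Myf5 and 60 held both, and 23 also held Myod1, the factor of activated cells. Among the 79 differentiating barcodes, 7 held Pax7, 2 held Myf5 and 47 held Myod1. Myog ranged from 1 to 69 UMIs per differentiating barcode, with a median of 25, and 5 barcodes had a single UMI. The median mitochondrial share was 4.57% in the satellite and 5.69% in the differentiating class, and the median depth 4133 and 6114 UMIs.

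The question of how satellite and differentiating cells differ could be asked of the puberty library alone, the only one with at least 10 barcodes of each class. The UMIs of each class were summed, giving 819114 for satellite and 499935 for differentiating cells, and the ratio of CPM was taken with its exact conditional interval for counting error. With 1 library there is no replicate check and no p. Genes with at least 50 UMIs in the higher class, 2028 in all without the mitochondrial genes and those used by the rule, were past 2-fold in 25.8% (9.91% higher in the differentiating and 15.9% higher in the satellite class). With the same CPM minimum for both directions, the numbers were 201 higher in the differentiating and 186 higher in the satellite class, of 1542. Since the minimum is read in the higher class, a gene scarce in the other class could pass only by differing, and the counts by list below are descriptions. The 10 genes with the widest ratio in each direction are named among those at least 2 times the fibroblast level of the library.

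Several contractile genes were far higher in the differentiating class. Of 25 genes of the sarcomere and of early muscle differentiation, 10 had enough UMIs, 9 of them through the differentiating class alone. Among those with too few, Mylpf had 10 UMIs in the differentiating and 23 in the satellite class, Tnnt3 3 and 11, and Tnnc2 4 and 9. Actc1, the cardiac alpha-actin of developing skeletal muscle, had 975 UMIs (1950 CPM) in the differentiating and 0 in the satellite class, which makes it at least 532-fold higher with the satellite class set at 3 UMIs. Ttn, which encodes titin, the molecular ruler of the sarcomere, had 336 UMIs against 7, a ratio of 78.6 (37.8 to 197). Tnnt2, the embryonic and cardiac troponin T, had 129 UMIs against 0 (at least 70.5-fold) and Klhl41, a sarcomere-associated kelch protein, 108 against 0 (at least 59.0-fold). Acta1, the skeletal alpha-actin, was 1530 CPM against 39.1 CPM, a ratio of 39.2 (27.5 to 57.7). Acta2, the smooth muscle actin, was 3780 CPM against 770 CPM (4.91 times, 4.48 to 5.38) and was found in all 79 differentiating barcodes, while Myh11, the smooth muscle myosin, had 1 UMI there against 15 in the satellite class.

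Genes of the finished fibre were scarce. Of 12 mature myofibre genes only Atp2a1, the calcium pump of fast fibres, had enough UMIs, with 179 against 6 (48.9 times, 22.0 to 135). Ckm had 21 UMIs against 8. Myh3, the embryonic myosin, had 13 UMIs against 0.

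Of 8 genes of cell cycle exit 6 had enough UMIs. Of these, 2 were over 2-fold higher in the differentiating class (9.91% of all genes), 1 over 2-fold lower (15.9% of all genes) and 3 within 2-fold. Cdkn1c, which encodes the cyclin-dependent kinase inhibitor p57, had 5928 UMIs (11858 CPM) in the differentiating and 22 UMIs (26.9 CPM) in the satellite class, a ratio of 441 (291 to 705). It was detected in 70 of the 79 differentiating barcodes and in 11 of the 187 satellite barcodes, of which none held more than 9 UMIs. Rb1, the retinoblastoma protein, had 54 UMIs against 5 (17.7 times, 7.13 to 56.7), and Ccnd1 (cyclin D1) was lower in the differentiating class, at 146 CPM against 377 CPM (satellite over differentiating 2.58, 2.00 to 3.38). Cdkn1a, which encodes p21, was level between the classes within counting error, at 574 CPM against 599 CPM (0.958 times, 0.825 to 1.11). The inhibitor Cdkn2c, too low for the count, had 9 UMIs in the differentiating and 42 in the satellite class (satellite over differentiating 2.85, 1.37 to 6.65). Of 9 fusion genes 5 had enough UMIs. Mymk had 339 UMIs against 0 (at least 185-fold) and Mymx 96 against 0 (at least 52.4-fold), and Jam3, an adhesion molecule, was 11.1 times higher (6.63 to 19.7). The tetraspanins Cd9 and Cd81 were within 2-fold.

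Among the remaining named genes, Isyna1 (inositol phosphate synthase) had 162 UMIs against 4, Chchd10 (a mitochondrial protein) 251 against 8 and Mylk4 (a myosin light chain kinase) 94 against 0. Chrna1, the alpha subunit of the muscle acetylcholine receptor, was 4.58 times higher in the differentiating class (3.28 to 6.49), and Jsrp1, a protein of the calcium release site, 3.41 times (2.63 to 4.44). Mef2a, a partner of the myogenic factors, was 3.08 times higher (2.21 to 4.32).

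**Figure D2:**
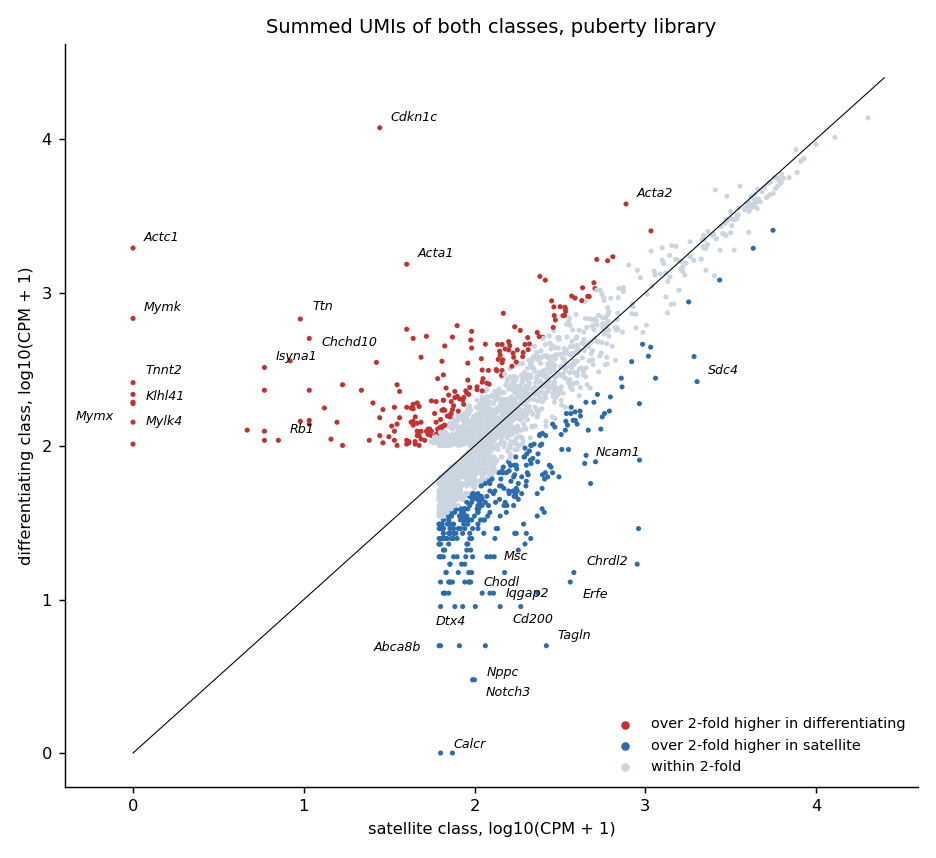
Each point is a gene of the puberty library with at least 50 UMIs in the higher class, placed by log10(CPM + 1) in the satellite class (x axis) and the differentiating class (y axis); red and blue mark genes past 2-fold and the line marks equal levels. Cdkn1c, Actc1 and Mymk lie far above the line, and Notch3, Tagln and Calcr far below it.

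Several surface genes, Notch3 and some collagens were higher in the satellite class. Of 18 genes of satellite cell surface and signalling, 13 had enough UMIs: 8 were over 2-fold higher in the satellite class (15.9% of all genes), 7 of them with under 50 UMIs in the differentiating class, 1 (Megf10) over 2-fold higher in the differentiating class and 4 within 2-fold. Chodl had 191 UMIs against 5 (satellite over differentiating 23.3, 9.82 to 72.6). Calcr, the calcitonin receptor, had 51 UMIs against 0, at least 10.4-fold higher with the differentiating class at 3 UMIs. Sdc4, a syndecan of the satellite cell surface, was 2009 CPM against 262 CPM (7.67 times, 6.42 to 9.23), Vcam1 6.71 times (3.80 to 12.9), Ncam1 5.80 times (4.14 to 8.33) and Cav1 (caveolin-1) 8.93 times (4.86 to 18.3). Cdh15, by contrast, was level at 198 CPM against 168 CPM (1.18 times, 0.899 to 1.55). Megf10 was 2.69 times higher in the differentiating class (1.93 to 3.79).

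In the Notch list, 4 of 14 genes had enough UMIs. Notch3, a receptor of quiescent satellite cells, had 79 UMIs against 1, a ratio of 48.2 with the wide interval of a single UMI (8.41 to 1928), and the target Heyl had 55 against 7 (4.80 times, 2.18 to 12.5). Notch1 and Notch2 were within 2-fold. Notch3 also stands in the pericyte list. Of the other genes of that list, Acta2 had 631 UMIs in the satellite and 1890 in the differentiating class, Myh11 15 and 1, Mcam 3 and 7 and Cspg4 3 and 0. Rgs5 was 0 by the rule, and Tagln, a smooth muscle gene outside the list, had 215 and 2. Their part in the Notch3 value was not tested. Among transcription factors, Msc (musculin) was 6.85 times higher in the satellite class (3.47 to 15.4), and the inhibitors of differentiation Id2 and Id3 were 6.57 times (3.72 to 12.7) and 2.42 times (1.959 to 3.02) higher.

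Of 13 genes of matrix and niche, 9 had enough UMIs, of which 5 were over 2-fold higher in the satellite class (15.9% of all genes). All 5 had under 50 UMIs in the differentiating class. Col4a1, a chain of basement membrane collagen, was 5.22 times higher (3.80 to 7.34), Col6a1 5.02 times (3.45 to 7.54) and Col5a3 4.13 times (2.47 to 7.33). Fn1 (fibronectin) went the other way, at 102 CPM in the differentiating and 39.1 CPM in the satellite class, with 39.2% of the former in 1 barcode. The fibroblast collagens did so too, with Col1a1 at 402 CPM and 167 CPM (2.40 times, 1.93 to 3.01) and Col1a2 at 446 CPM and 223 CPM (1.997 times, 1.63 to 2.44), and 1 differentiating barcode held 53.7% and 51.6% of their UMIs. Other named genes higher in the satellite class were Tagln (transgelin, 215 UMIs against 2), Nppc (C-type natriuretic peptide, 81 against 1), Erfe (erythroferrone, 297 against 6), Chrdl2 (a chordin-like antagonist of BMP, 312 against 7), Cd200 (115 against 4), Iqgap2 (105 against 5), Abca8b (50 against 2) and Dtx4 (a deltex ligase of the Notch pathway, 82 against 4).

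Of 11 immediate early and stress genes with enough UMIs, 9 were within 2-fold, with Fos at 2293 CPM in the satellite and 2044 CPM in the differentiating class. Of 6 proliferation genes 4 were over 2-fold higher in the satellite class (15.9% of all genes), all 4 with under 50 UMIs in the differentiating class. Among them was Top2a at 161 CPM against 74.0 CPM (2.18 times, 1.502 to 3.23), and 1 differentiating barcode held 81.1% of the Top2a UMIs of its class. Of the proliferation genes too low for the count, Mcm2 lay the other way, with 23 UMIs in the differentiating and 10 in the satellite class. Its differentiating over satellite ratio was 3.77 (1.73 to 8.87), while the rest of these low genes had a higher CPM in the satellite class. Of 9 imprinted and growth genes 7 had enough UMIs. Of these, 3 were over 2-fold higher in the satellite class (15.9% of all genes), among them Peg3 (2.25 times, 1.76 to 2.92). Rian was the 1 over 2-fold higher in the differentiating class (9.91% of all genes), at 2.59 times (1.92 to 3.50), and 3 were within 2-fold.

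Within the differentiating class, Myog level went with the later genes. Of the 49 barcodes with at least 20 Myog UMIs, 44 held Actc1 and all 49 held Cdkn1c, and 2 held Pax7. Of the 30 barcodes with fewer, 5 held Actc1, 21 held Cdkn1c and 5 held Pax7. The cut at 20 was made after the values were seen and the counts are a description within 1 library. It was a cut on raw UMIs, and depth was not matched between the barcodes above and below it. The other class, with Myod1 and Des but no Myog, Pax7 or Myf5, was near the satellite class in some of these genes but not in Cdkn1c. Its 24 puberty barcodes had Sdc4 at 1754 CPM and 0 UMIs of Actc1, Mymk and Rb1. Cdkn1c was held by 7 of the 24, with 42 UMIs in all (392 CPM, against 26.9 CPM in the satellite class).

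**Figure D3:**
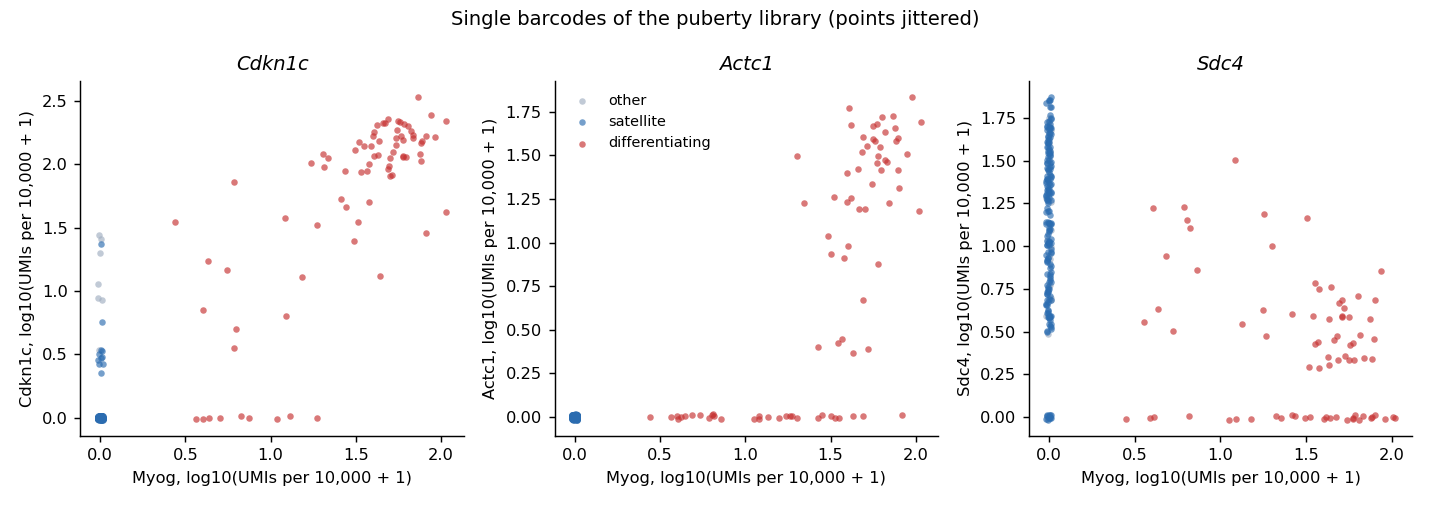
Single barcodes of the puberty library, with Myog on the x axis and Cdkn1c, Actc1 or Sdc4 on the y axis, all as log10(UMIs per 10,000 + 1), coloured by class and jittered. Actc1 appears almost only at high Myog, Cdkn1c already at lower Myog, and Sdc4 is highest where Myog is 0.

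The 11 differentiating barcodes outside puberty varied widely in Myog. In adult, 1 barcode had 46 Myog, 161 Cdkn1c and 37 Actc1 UMIs, and the other a single Myog UMI and no Actc1. In placebo replicate 1 the 1 barcode had 135 Myog, 325 Cdkn1c, 117 Actc1 and 35 Mymk UMIs among 23981. In pregnancy 1 of 6 barcodes had 34 Myog, 54 Cdkn1c and 16 Actc1 UMIs, while the other 5 had 2 to 11 Myog UMIs and 0 Actc1. The single barcodes of MPA+E replicate 1 and 2 had 1 and 3 Myog UMIs and 0 Actc1. Over the 6 libraries with a differentiating member, Ttn, Isyna1 and Chchd10 were higher in the differentiating class in 6 of 6, Cdkn1c, Mymk, Tnnt2 and Klhl41 in 5, Actc1 and Mylk4 in 4, and Mymx in 3. Tagln, Nppc, Notch3, Erfe, Chrdl2, Chodl and Dtx4 were higher in it in 0 of 6, Cd200 and Iqgap2 in 1 and Abca8b in 2. Puberty is among the 6 and chose these genes. The differentiating side was 1 barcode in placebo replicate 1 and in each MPA+E library, and 2 barcodes with 15630 UMIs in adult. At such depth a low gene can have 0 UMIs whatever its level, as for Notch3, at 81.9 CPM in adult satellite cells. The counts of 0 of 6 are therefore weak. How many of all genes were higher in 0 or in 6 of the 6 was not counted. Isyna1 rested on 1 differentiating UMI in adult, pregnancy and both MPA+E libraries, and Chchd10 on 1 in adult and MPA+E replicate 1. A tie at 0 did not count as higher, as for Nppc and Dtx4 in MPA+E replicate 2.

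The puberty and adult libraries were next compared gene by gene. Over all members, 1426235 UMIs in puberty and 324325 in adult, 437 of 2691 genes (16.2%) were over 2-fold higher in puberty and 32 (1.19%) in adult. The minimum was uneven, since 50 UMIs are 35.1 CPM in puberty but 154 CPM in adult, and with 154 CPM asked in both directions the numbers were 74 and 32 of 876. The differences also hold the class shares, since the genes named as higher in puberty include Mymk (339 UMIs against 3), Tnnt2 (129 against 2), Tnni1 (71 against 1), Klhl41 (108 against 2) and Chchd10 (264 against 4). The comparison was therefore also made within the satellite class, with 187 barcodes and 819114 UMIs in puberty and 74 barcodes and 268461 UMIs in adult. There, 170 of 1743 genes (9.75%) were over 2-fold higher in puberty and 21 (1.2%) in adult, or 19 and 21 of 673 with the same CPM minimum in both directions. The median log2 ratio of the 1743 genes was 0.35.

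Several proliferation genes had a higher CPM in pubertal satellite cells. Of 14 such genes 6 had enough UMIs and 5 were over 2-fold higher in puberty, against 9.75% of all genes, but 50 UMIs are 61.0 CPM in puberty and 186 CPM in adult, and of the 5 only Hmgb2 (192 CPM) reached 186 CPM in puberty. Mki67 had 82 UMIs in puberty and 2 in adult (13.4 times, 3.60 to 113), Top2a 132 against 8 (5.41 times, 2.67 to 12.8), Birc5 (survivin) 67 against 1 (22.0 times, 3.81 to 880) and Cenpa, the centromeric histone, 68 against 3 (7.43 times, 2.44 to 36.9). The mitotic genes Prc1 and Cks2 were among the 10 named genes too, with 92 and 97 UMIs against 6 and 8, as was Uck2, a uridine-cytidine kinase, with 64 against 1. The UMIs of Mki67 and Top2a came from few barcodes: 19 of 187 satellite barcodes in puberty held Mki67 or Top2a (10.2%, 6.23 to 15.4%) and 1 of 74 in adult (1.35%, 0.0342 to 7.30%). At 2000 UMIs each, 16 of 185 and 1 of 71 did (8.65% and 1.41%), a ratio of 6.14 whose interval, 0.830 to 45.4, reaches below 1. Fibroblast barcodes moved the same way, with 3.17% in puberty and 0.650% in adult, and Mki67 at 12.5 CPM and 2.82 CPM. Birc5 and Uck2 rest on a single adult UMI.

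Further listed genes differed too. Sox11, a factor of immature cells, was 339 CPM in puberty against 127 CPM in adult (2.68 times, 1.87 to 3.95), and Id2 2.87 times higher (1.71 to 5.16). These were the 2 past 2-fold of 5 transcription factors with enough UMIs, against 11% of all genes, and Id3 was lower in puberty (0.622 times, 0.528 to 0.734). Of 5 imprinted and growth genes 1 was past 2-fold, which is near that background, Mest (2.27 times, 1.47 to 3.64), while Meg3 was lower in puberty (0.622 times, 0.557 to 0.696), as was Rian, too low for the count (0.530 times, 0.364 to 0.780). Ccnd1 was 2.07 times higher (1.53 to 2.85). Of 7 matrix and niche genes with enough UMIs 3 were over 2-fold higher in puberty, against 9.75% of all genes, and of the 3 only Col4a1 reached 186 CPM in puberty: Col4a1 (2.36 times, 1.76 to 3.24), Col4a2 (3.30 times, 1.82 to 6.57) and Col15a1 (2.28 times, 1.40 to 3.902). In fibroblast barcodes these 3 genes were near level, at 829 CPM in puberty and 812 CPM in adult for Col4a1, 352 CPM and 321 CPM for Col4a2 and 280 CPM and 260.0 CPM for Col15a1. Laminins with too few UMIs for the count lay the other way, with adult over puberty at 1.79 for Lama2 (1.07 to 2.94) and 6.102 for Lamb1 (1.30 to 37.7, 6 UMIs against 3). Genes of other cell type lists moved as well: the fibroblast collagen Col1a1 was 2.99 times (1.75 to 5.49) and Col1a2 1.71 times (1.19 to 2.54) higher in puberty, and Acta2 2.18 times (1.75 to 2.73), while Dcn, which the rule limits, was 78.1 CPM in puberty and 279 CPM in adult. Their part in the collagen values was not tested. Actn3, the alpha-actinin of fast fibres, had 78 UMIs against 5 (5.11 times, 2.10 to 16.2). Selenoh and Snrpa1 complete the named genes, with 94 and 78 UMIs against 5 and 6.

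Some stress and immediate early genes were higher in adult satellite cells. Of 10 such genes with enough UMIs 6 were within 2-fold and 4 over 2-fold higher in adult, against 1.2% of all genes: Hspa1a, the inducible heat shock protein 70, at 704 CPM against 188 CPM (3.74 times, 3.01 to 4.66), Atf3 (2.50 times, 2.13 to 2.92), Fosb (2.34 times, 2.11 to 2.60) and Jun (2.01 times, 1.78 to 2.26). That background was 21 of 1743 genes under the uneven minimum, and 21 of 673 with the same CPM minimum in both directions. Fos was 3736 CPM against 2293 CPM (1.63 times, 1.51 to 1.76). Myc (1.08 times, 0.784 to 1.47) and Socs3 (0.9504 times, 0.642 to 1.38) were level within counting error. Hspb1, a small heat shock protein, was 764 CPM against 200.2 CPM and Cebpd 2935 CPM against 1043 CPM. In fibroblast barcodes Hspa1a was also higher in adult, at 309 CPM against 123 CPM, as was Fosb, at 3077 CPM against 2277 CPM, whereas Atf3 was 1034 CPM against 1002 CPM. Such genes respond to tissue dissociation, and handling of the 2 glands cannot be told apart from stage. The further named genes were Arl4d, Nfat5, Sertad1, Flnc, Skil, Sbno2 and Trib1, at ratios of adult over puberty between 1.74 for Trib1 and 2.45 for Arl4d.

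**Figure D4:**
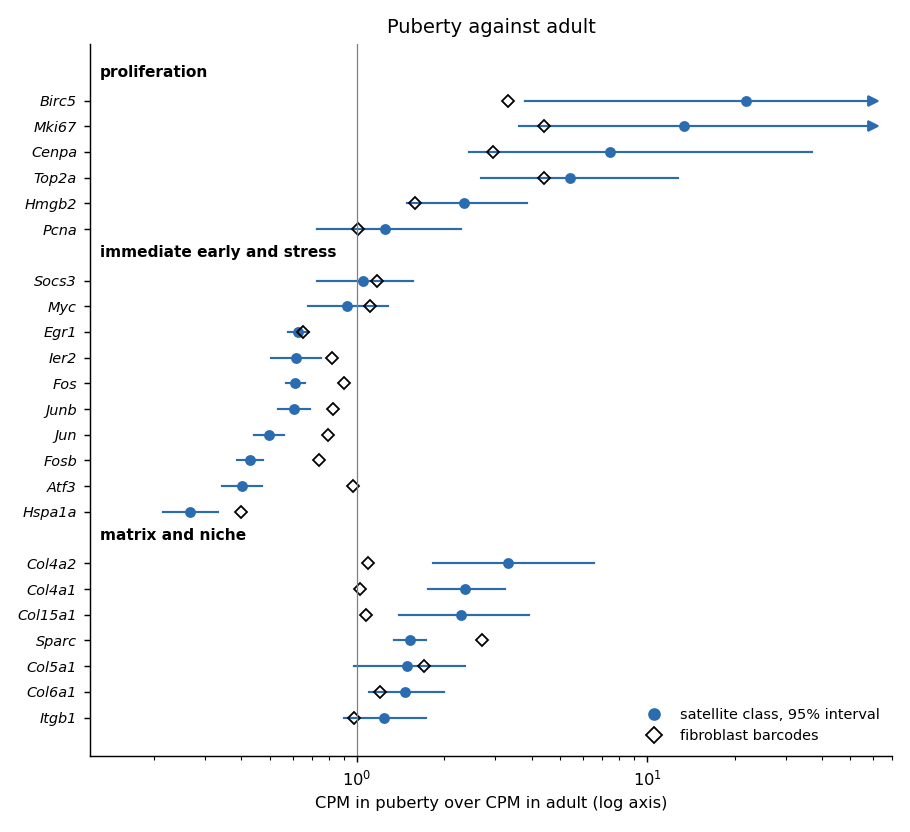
CPM in puberty over CPM in adult, on a log axis, for the satellite class (blue, exact 95% intervals, arrowheads where the interval passes the axis) and for fibroblast barcodes of the same libraries (open diamonds), for genes with at least 50 UMIs in the higher library. Both lie right of 1 for the 6 proliferation genes except Pcna, which is level in fibroblast barcodes (1.01) and whose satellite interval (0.726 to 2.28) spans 1. Col4a1, Col4a2 and Col15a1 lie right of 1 in the satellite class and near 1 in fibroblast barcodes.

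Surface and signalling genes of the satellite cell lay on both sides of level between puberty and adult, with none past 2-fold among those with enough UMIs. Of 9 with enough UMIs 0 were past 2-fold, against 11% of all genes, which for so few genes is near the background. Sdc4 was 2009 CPM and 1669 CPM, and Cdh15 198 CPM and 149 CPM. Calcr, with 51 and 17 UMIs too low for that count, was 62.3 CPM and 63.3 CPM. Chodl was lower in puberty, at 233 CPM against 369 CPM (adult over puberty 1.58, 1.23 to 2.03), as was Vcam1 (1.43, 1.05 to 1.92). Cd34, a surface glycoprotein of quiescent satellite cells, had 68 and 49 UMIs, too few in adult for the count above, with adult 2.20 times puberty (1.49 to 3.22), and Sdc3 had 6 and 9 UMIs (4.58 times, 1.45 to 15.6). Isl1, a homeobox factor of cranial muscle progenitors and motor neurons, was among the genes named over all members as higher in adult (54 UMIs against 70, or 167 CPM against 49.1 CPM). In the satellite class it was 179 CPM against 63.5 CPM and was held by 27 of 74 adult and 36 of 187 puberty barcodes, while fibroblast barcodes had 0.325 CPM and 0.328 CPM.

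Across the 7 libraries with at least 10 satellite barcodes, the identity genes were present in all. Chodl was 233 CPM in puberty, 369 CPM in adult, 378 CPM in pregnancy, 214 CPM in involution, 302 CPM and 255 CPM in placebo replicates 1 and 2, and 234 CPM in MPA+E replicate 1. The exact intervals of all but adult and puberty, and of adult and MPA+E replicate 1, overlap. Notch3 ran from 81.9 CPM in adult to 197 CPM in involution (12 UMIs) and its intervals all overlap. Fgfr4, a fibroblast growth factor receptor of muscle precursors, was lower in puberty (65.9 CPM, 49.5 to 86.0) than in involution (181 CPM, 90.2 to 323), placebo replicate 1 (149 CPM, 99.5 to 213), placebo replicate 2 (180 CPM, 116 to 268) and MPA+E replicate 1 (132 CPM, 105 to 162). In adult it was 81.9 CPM, with an interval (51.4 to 124) that overlaps all of these, and pregnancy held 1 UMI. The hormone libraries were deeper, with satellite medians of 8944, 8792 and 10888 UMIs against 3237 in adult. Fos ran from 1705 CPM in placebo replicate 2 to 8461 CPM in placebo replicate 1, so the replicates of 1 arm lay at both ends of the range.

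**Figure D5:**
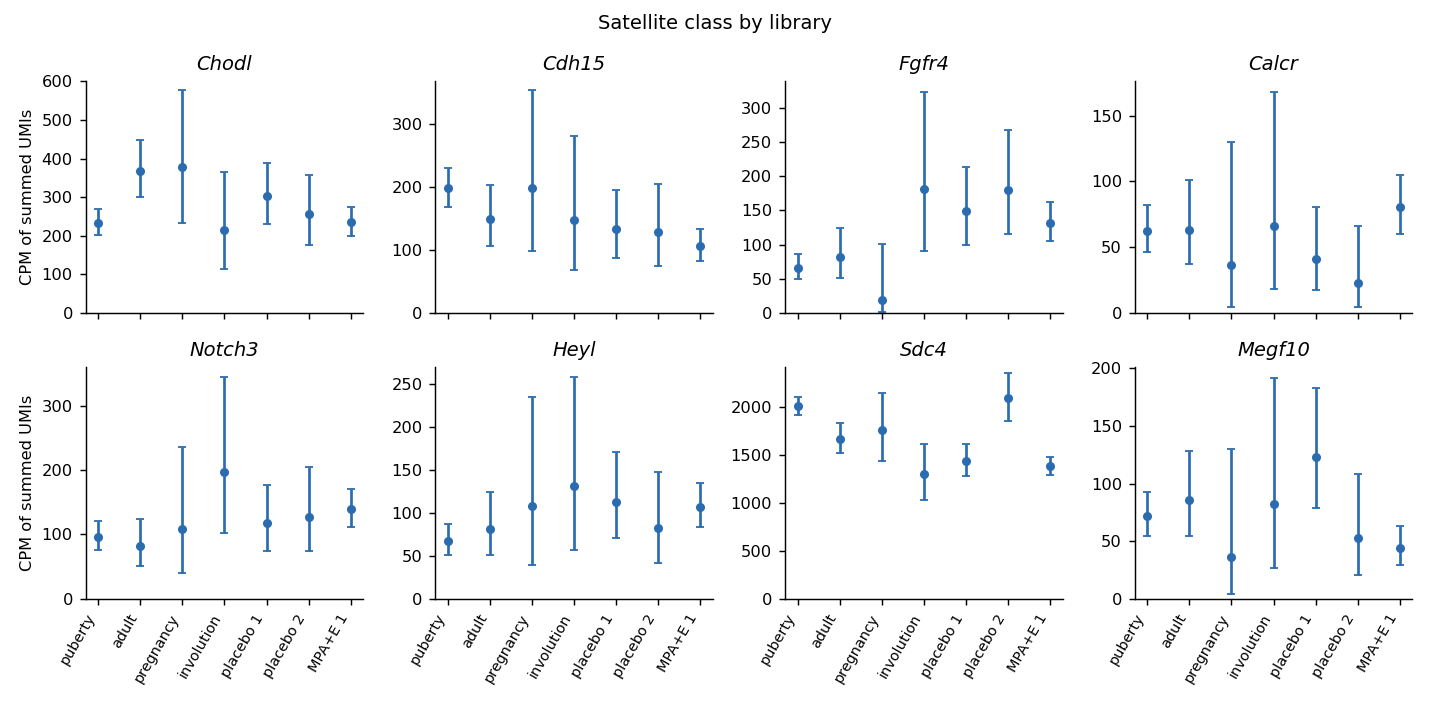
CPM of the summed satellite class in the 7 libraries with at least 10 such barcodes, with exact Poisson 95% intervals for 8 surface and Notch genes. Intervals are widest in pregnancy and involution, which hold 22 and 15 satellite barcodes, and Sdc4 is the most abundant, at 1298 to 2089 CPM.

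Hormone receptors were sparse in satellite cells. Pgr, the progesterone receptor, had 1 UMI in the 187 puberty satellite barcodes, 1 in the 60 of MPA+E replicate 1 and 0 in adult and in both placebo libraries, whereas fibroblast barcodes had 48.5 CPM in puberty and 41.9 CPM in adult. Esr1, the estrogen receptor, was 50.1 CPM in puberty (41 UMIs), 18.6 CPM in adult (5 UMIs), 51.2 CPM and 97.7 CPM in placebo and 33.3 CPM in MPA+E replicate 1. With 3 satellite barcodes in MPA+E replicate 2, no test of genes between the hormone arms was made.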

How the data were processed

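Droplet 3′ single-cell RNA libraries (10x Genomics) were deposited as filtered matrices of UMI counts per gene and barcode, which the authors made with Cell Ranger 6.1.2 and the mm10 genome. All 13 tables list the same 32285 genes. Depth is given as UMIs per library, and precision as exact (Clopper-Pearson or Poisson) 95% intervals, which cover counting error only; ratios of shares carry log-normal 95% intervals.

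From these counts, members, classes and fibroblast barcodes were picked by the stated rules with no normalization, in Python 3.11.15 with scipy 1.17.1. UMIs were summed per class and library as CPM. Ratios of sums carry exact conditional intervals. The planned count model for satellite against differentiating cells needed 3 libraries with 10 barcodes of both classes, and only puberty had them. That for MPA+E against placebo needed 10 members in each library, and MPA+E replicate 2 had 4. Neither was run. Named genes were then the 10 widest ratios per direction with at least 50 UMIs in the higher side and at least 2 times the fibroblast CPM, beside genes of fixed lists. Doublets were kept in the main analysis and called with Scrublet (scanpy 1.11.5, 30 components, 0.8% per 1000 barcodes) as an alternative; 5 members were called. The interval code was tested on simulated counts. Replicates are libraries of pooled females. The members and lists were chosen with earlier results of these data known. The minimum of the same CPM in both directions and the leaving out of single hormone libraries were added after the data were seen.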

Additional observations from a re-analysis of the deposited data

How the results depend on the processing

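The share of members in puberty over adult, 5.09, was between 4.602 and 5.36 with doublets removed, a 5% mitochondrial limit, a Dcn limit of 10 or thinning to 2000 UMIs, and rose to 7.12 with at least 3 markers and to 7.29 with Des not counted. The Myog-positive share, puberty minus adult, was 24.9 percentage points and 32.9 with Des not counted. With the 5% mitochondrial limit 30 of the 79 puberty differentiating barcodes were left, and the shares were 17.8% in puberty and 1.61% in adult. The log2 share in MPA+E minus placebo ranged from -2.91 to 1.80 when 1 hormone library was left out, being reversed without MPA+E replicate 2. It was -1.41 with at least 3 markers, -1.37 with Des not counted, -1.21 when thinned and -0.55 with the replicate number as a block, the pairs being 1.30 and -2.41 (exact sign-flip permutation test, p = 1, the smallest possible being 0.5). No gene test was run, so gene fits with pairing, another tool, no filter or a left-out library were not made. Thinning to 2000 UMIs left 202 of 722 genes (28.0%) past 2-fold between the classes, in place of 524 of 2028 (25.8%). Between puberty and adult it left 228 of 1210 (18.8%) in place of 469 of 2691 (17.4%). For the latter the satellite class alone gave 191 (10.96% of genes), a minimum of 20 UMIs gave 1111 of 4965 (22.4%), and the same CPM minimum gave 106 (12.1%). Chchd10, higher in puberty over all members, reversed to a log2 ratio of -0.19 in the satellite class alone. Thinning moved the printed log2 ratio of 14 of 40 named genes past their error, with no change of sign. Between the classes these included Tagln (-6.04 to -3.71), Notch3 (-5.59 to -2.49) and Abca8b (-3.93 to -1.34). Between puberty and adult they included Birc5 (4.32 to 1.13), Mki67 (3.79 to 1.31), Tnni1 (4.01 to 0.42) and Top1mt (3.91 to 1.00). A side left with no UMI was again set at 3 UMIs, so such a value is a limit and does not show a smaller ratio. Before thinning the lower side held only 1 UMI for Notch3 and Birc5 and 2 for Mki67.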
